A study of Drosophila melanogaster with 24 samples.

Results

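The 12 males of this account were the trained flies of a courtship suppression experiment, out of 24 single heads of Drosophila melanogaster measured in all. They were chosen by the measured level of Metchnikowin (Mtk), an antimicrobial peptide (AMP) gene. Mtk reached at least 4 RPKM (reads normalised to gene length and to library size) in 8 trained flies and stayed below it in 4, with 4 high and 2 low flies in each training schedule. In courtship suppression a virgin male meets a mated female that rejects him and afterwards courts less. The 1X trained males had the female with them once for 2 h, and the 3X trained males 3 times, with breaks of 30 min, and mock males (1X mock, 3X mock) spent the same time without a female. All males were housed singly for 5 days after eclosion and kept at 25 °C with light and dark periods of equal length. No genotype is given in the labels, each group had 6 flies, and each head was frozen 1 h after the last session and sequenced as its own library. The question was which other transcripts follow the AMP level from one trained fly to the next.

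AMPs are short secreted peptides with which insects kill microbes. In flies most of them are made by the fat body, blood cells and epithelia, and many are induced by the Imd pathway, in which peptidoglycan recognition proteins (PGRPs) sense bacterial cell wall and the NF-kB factor Relish is activated. Others answer mainly to the Toll pathway, and Mtk is induced through both. The fat body of the adult head surrounds the brain, so a whole head contains brain, eye, fat body and blood cells, and in bulk RNA of this kind fewer cells of a type and less RNA per cell cannot be told apart.

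Libraries held 17140748 to 37763748 reads in the genes whose RPKM gave whole reads, with the fewest in 1X trained replicate 4. The share of genes at 0 lay between 13.9% and 22.2% per fly. Photoreceptor genes, as a check of the tissue, summed to between 22364 and 26981 RPKM over the 24 flies, and the testis genes Mst84Da, Mst84Dc and ocn were at 0 in every trained fly. In 3X mock replicate 6 these 3 genes had 148, 301 and 234 reads and the testis list summed to 143 RPKM, against at most 41.5 in any other fly. The part of these reads in the values of mock flies was not tested. The 24 libraries are separate flies, so p-values here measure the spread between individuals.

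Mtk (chromosome 2R, 15408846 to 15409113, plus strand, in BDGP6) was the gene that chose the flies, and its values are given as a description. In 1X trained flies the 4 high values were 139, 4.44, 30.4 and 5.76 RPKM in replicates 1, 3, 4 and 5, and the low values were 1.24 and 2.79 in replicates 2 and 6. In 3X trained flies replicates 2, 3, 4 and 5 had 13.5, 6.28, 15.6 and 4.83 RPKM, and replicates 1 and 6 had 1.35 and 1.54. The 12 mock flies ran from 0.423 to 2.24 RPKM, so that 1 of the 4 low trained flies, 1X trained replicate 6, also lay above every mock fly. The nearest flies on either side of the threshold were replicates 3 (4.44) and 6 (2.79) within 1X trained and replicates 5 (4.83) and 6 (1.54) within 3X trained. In reads, Mtk ran from 39 to 1272 in the 8 high flies, from 10 to 25 in the 4 low flies and from 4 to 21 in mock flies. Mtk lies inside Stacl on the same strand, and Stacl itself had 9.87 to 13.9 RPKM in trained flies, with a slope of 0.04 on Mtk (unadjusted p = 0.0155, limma, n = 12).

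The level of each other gene was then related to Mtk over the 12 trained flies as a slope, the change in log2(RPKM + 1) of the gene for each unit of log2(RPKM + 1) of Mtk, with the schedule as a term (limma). Of 10546 genes tested, 1 passed an adjusted p of 0.05, a share of 0.00948%, and that gene was Attacin-C (AttC). It had been named as following Mtk when the flies were chosen, so its call is a description. At an unadjusted p below 0.05, 699 genes had a positive slope (6.63%) and 714 a negative one (6.77%), and 52.9% of all slopes were above 0. The count of calls depended on single flies: it was 0 without 1X trained replicate 1, 3 or 5 or 3X trained replicate 3 or 6, it was 2 without 1X trained replicate 6, 5 without 1X trained replicate 2 and 7 without 3X trained replicate 2, and it reached 267 without 1X trained replicate 4, the shallowest library (0.759% positive and 1.77% negative). Without 1X trained replicate 1, the fly with the most Mtk, the shares at an unadjusted p below 0.05 were 2.96% positive and 3.25% negative.

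AttC, DptB and Dro had slopes on Mtk between 0.68 and 0.76, of which that of AttC passed the test. AttC overlaps CG4744 and DptB overlaps CG43109 on the other strand, and the libraries were not stranded. AttC and DptB had been named as following Mtk when the flies were chosen, so their values in trained flies are a description. DptB and Dro also passed the filter on low values (1 RPKM in at least 6 of 24 flies) only through the high flies: outside these, DptB reached 1 RPKM in 4 flies and Dro in 3, so that their difference is in part fixed by the filter. AttC (2R, 13393705 to 13394667, plus strand), an attacin, had 141, 10.7, 47.9 and 12.2 RPKM in the high 1X trained flies and 11.5, 18.2, 46.9 and 8.66 in the high 3X trained flies, in order of replicate number. The low flies had 5.85 and 11.4 after 1X training and 9.15 and 7.13 after 3X training. The high and low flies thus overlapped, and 3 of the 8 high flies lay above the mock maximum of 19.7 RPKM. The slope was 0.69 (SE 0.08, limma adjusted p = 0.0224) and lay between 0.65 and 0.75 with each fly left out. The adjusted p was then 0.785 without 1X trained replicate 1, 0.0755 without replicate 3 and 0.0646 without replicate 5 of that group, 0.0603 and 0.0818 without 3X trained replicates 3 and 6, and below 0.05 in the other 7 fits.

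Diptericin B (DptB; 2R, 18867391 to 18867895, plus strand) had 37.4, 2.04, 6.32 and 0.187 RPKM in the high 1X trained flies and 1.34, 11.4, 13.9 and 2.22 in the high 3X trained flies. Its low flies had 0.590 and 1.47 RPKM after 1X and 0.871 and 0.688 after 3X. The low flies lay within the mock range of 0.127 to 1.71, as did 2 high flies, 3X trained replicate 2 and 1X trained replicate 5, the latter with 5.76 RPKM of Mtk but the lowest DptB of all trained flies. The slope was 0.76 (SE 0.15, limma adjusted p = 0.0908), which missed the threshold. Diptericin A (DptA), its neighbour, was too low for the filter but ran from 0 to 10.5 RPKM in high flies and was at most 0.121 in low flies, and it too was at 0 in 1X trained replicate 5.

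Drosocin (Dro; 2R, 14745961 to 14746714, plus strand), a proline-rich peptide, passed the filter through its high flies, as said, and its values are a description. It had 12.0, 1.33, 29.0 and 2.90 RPKM in the high 1X trained flies and 3.90, 1.87, 3.27 and 4.16 in the high 3X trained flies. The low flies had 0.176 and 0.873 after 1X and 0.556 and 0.228 after 3X, so no high fly overlapped a low one. Of the 10546 genes, 17 (0.161%) lay higher in all 8 high flies than in all 4 low flies, and Dro is the 1 among them that passed the filter only through the high flies. The slope of Dro was 0.68 (SE 0.12, limma adjusted p = 0.0741), and 6 of the 8 high flies lay above the mock maximum of 2.16.

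**Figure D1:**
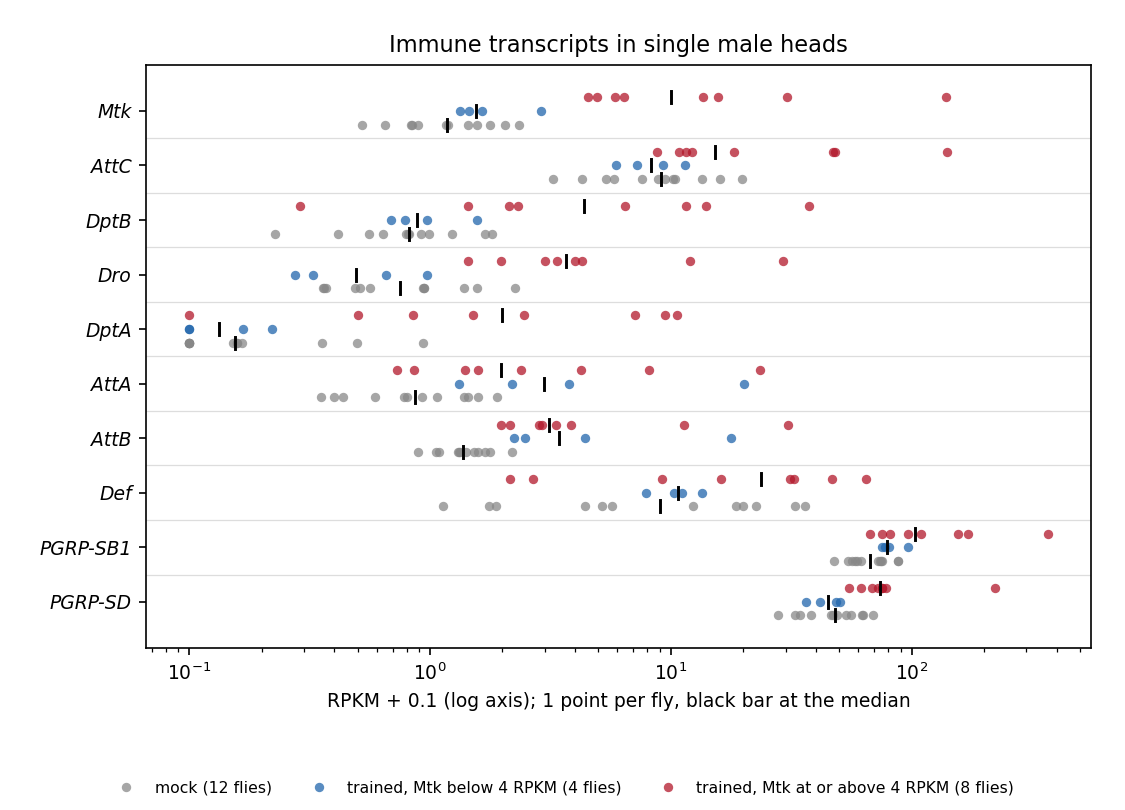
RPKM + 0.1 on a log axis (x) of 8 AMP genes and 2 PGRP genes (y), with 1 point per fly, grey for 12 mock flies, blue for 4 trained flies below 4 RPKM of Mtk, red for the 8 at or above it, and a black bar at each median. Dro and PGRP-SD separate red from blue, whereas AttA, AttB and Def do not.

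AttA, AttB and Def did not share this order. Attacin-A (AttA) and Attacin-B (AttB), adjacent genes on 2R (14747362 to 14748215 and 14749223 to 14750165) with near-identical sequences between which reads can be split, were highest in 3X trained replicates 1 and 2, a low and a high fly. AttB had 17.6 and 30.6 RPKM in these, 11.3 in 1X trained replicate 1 and 1.86 to 4.29 in the other 9 trained flies. All 4 low flies and 6 of the 8 high flies were above the mock maximum of 2.09, so low-Mtk flies exceeded mock flies in AttB as well. Its slope was 0.20 (SE 0.17, limma adjusted p = 0.618), and -0.04 without 1X trained replicate 1. AttA had 20.05 and 23.4 RPKM in the same 3X flies and 0.630 to 7.99 in the other 10, with a slope of 0.09 (SE 0.22) that became -0.16 without 1X trained replicate 1 and -0.02 without 3X trained replicate 2. Defensin (Def), which acts on Gram-positive bacteria, ran from 2.05 to 64.3 RPKM in the high flies, from 7.83 to 13.4 in the low flies and from 1.04 to 36.0 in mock flies, with a slope of -0.15 (SE 0.23, limma adjusted p = 0.821).

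The cecropins (CecA1, CecA2, CecB, CecC) and Attacin-D (AttD) passed no filter on low values. CecA2 had 44, 26 and 30 reads in 1X trained replicates 1, 4 and 5, 32 in 3X trained replicate 1, at most 9 in any other trained fly and at most 8 in a mock fly. The same low-Mtk fly, 3X trained replicate 1, thus stood out for CecA2, AttA and AttB. CecC had 53, 47 and 74 reads in 1X trained replicates 1, 4 and 5, and at most 6 in the other trained flies. Counting the 12 AMP genes other than Mtk that the table holds, high flies had 3 to 10 (median 5.5) above every mock fly and low flies 1 to 4 (median 3). The like count over all genes was not made. The 12 include AttC and DptB, named when the flies were chosen, and genes with few reads. This count per fly is therefore only a description. Of the 6 AMP genes that passed the filter, 2 did so only through the high flies and 2 were named when the flies were chosen, so no count over them is read as a result. With no filter on low values 11 of the 12 had a positive slope (8422 of all 16377 genes). Of these, 6 had an unadjusted limma p below 0.05 (5.93% of all genes). The 12 include the 2 genes named when the flies were chosen, so this count too is only a description. DptA (0.68), CecB (0.10) and CecC (0.31) were among these 6, and CecB had at most 6 reads in any trained fly.

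**Figure D2:**
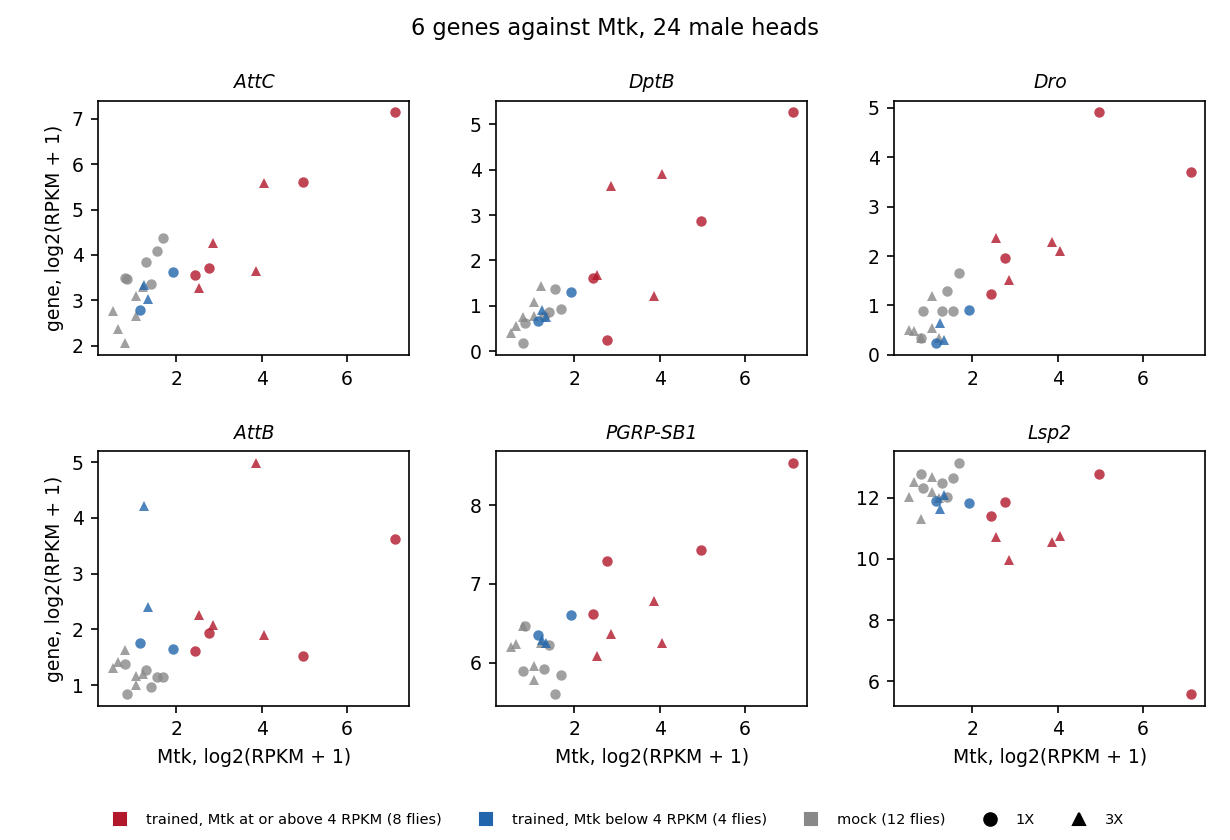
Log2(RPKM + 1) of 6 genes (y) against that of Mtk (x), with 1 point per fly, circles for 1X and triangles for 3X, red for high, blue for low trained flies and grey for mock flies. AttC, DptB and Dro climb with Mtk also among grey points, AttB is high in 3X trained replicates 1 (blue, 17.6 RPKM) and 2 (red, 30.6 RPKM), and Lsp2 is far below the others in 1X trained replicate 1 (46.8 RPKM).

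Mock flies did not set the Mtk split, and their Mtk ranged only from 0.423 to 2.24 RPKM. Among these 12 flies AttC, DptB and Dro again had positive slopes, 0.86 (SE 0.29, unadjusted limma p = 0.0106, n = 12), 1.00 (SE 0.20, p = 0.000382) and 0.69 (SE 0.30, p = 0.037). The other 3 AMP genes tested went the other way, though none had an unadjusted limma p below 0.05. With each mock fly left out, the slope was -0.62 to -0.20 for AttA, -0.37 to -0.04 for AttB and -2.04 to -0.64 for Def. At an unadjusted p below 0.05, 3.67% of all genes had a positive and 2.8% a negative slope. None of the 10546 genes passed the adjusted threshold (limma; 0 called, with 387 positive and 295 negative at an unadjusted p below 0.05), and the adjusted p of DptB was 0.464. With each mock fly left out, AttC and DptB kept an unadjusted p of at most 0.045 and 0.00298 in 12 of 12 fits, and Dro was below 0.05 in 8 of 12, with p = 0.179 (n = 11) without 1X mock replicate 2. Without 3X mock replicate 6, the library high in testis genes, the slopes of AttC, DptB and Dro were 1.04, 0.97 and 0.79. For these 3 genes the trained slope minus the mock slope was -0.17, -0.24 and -0.02, with unadjusted p from 0.676 to 0.975. Over all genes 0 differences were called (limma), with 327 positive (3.1%) and 387 negative (3.67%) at an unadjusted p below 0.05.

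Among the receptors and regulators of the Imd pathway, 2 secreted PGRPs stood near the top. PGRP-SD, which helps other receptors bind peptidoglycan (3L, 7651180 to 7651900, plus strand), had 222, 68.2, 78.2 and 75.6 RPKM in the high 1X trained flies and 54.9, 74.97, 61.5 and 72.6 in the high 3X trained flies. Its low flies had 50.4 and 48.7 RPKM after 1X and 36.4 and 41.5 after 3X. All 8 high flies were above all 4 low flies, and 3 of the high flies were within the mock range of 27.8 to 68.8. PGRP-SD overlaps CG7492 on the other strand and CG32373 on its own, so these genes may share reads. The slope was 0.31 (SE 0.05, limma adjusted p = 0.0741), and 0.20 (SE 0.06) without 1X trained replicate 1.

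PGRP-SB1 (3L, 16727299 to 16727989, minus strand), an amidase that cleaves peptidoglycan, was highest in 1X trained replicate 1 at 370 RPKM, followed by replicates 4 (171) and 5 (155) of that group. The other 5 high flies had 66.8 to 109 and the 4 low flies 75.4 to 96.7, so the groups overlapped. Its slope was 0.29 (SE 0.05, limma adjusted p = 0.0741), 0.35 in 1X trained flies alone and 0.09 in 3X trained flies alone. In mock flies the slopes of PGRP-SB1 and PGRP-SD were -0.40 and -0.25. The trained minus mock differences of 0.68 and 0.56 were not called. Both genes stood out by their small p in these trained flies, so the differences are only a description.

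PGRP-SA, a receptor that feeds the Toll pathway, had a slope of 0.19 (unadjusted limma p = 0.00396, n = 12) that rested on 1X trained replicate 1: that fly had 94.2 RPKM against 28.7 to 40.0 in the others, and without it the slope was 0.03. The same held for key, a subunit of the Imd kinase complex, with 46.0 RPKM in that fly against 26.4 to 32.3 and slopes of 0.09 with it and 0.03 without. Of 9 induced receptors and brakes of the pathway tested, 3 had a positive and 0 a negative slope at an unadjusted p below 0.05 (6.63% and 6.77% of all genes). Without that fly the 3 became 2 (2.96% of all genes). PGRP-LB and pirk, negative regulators of the pathway, had slopes of 0.05 and 0.00. Of 15 Imd signalling genes, key and IKKbeta were positive and imd negative at that level, with slopes of 0.09, 0.04 and -0.03, and without 1X trained replicate 1 none of the 15 was. Relish (Rel) had a slope of 0.08 (SE 0.07).

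**Figure D3:**
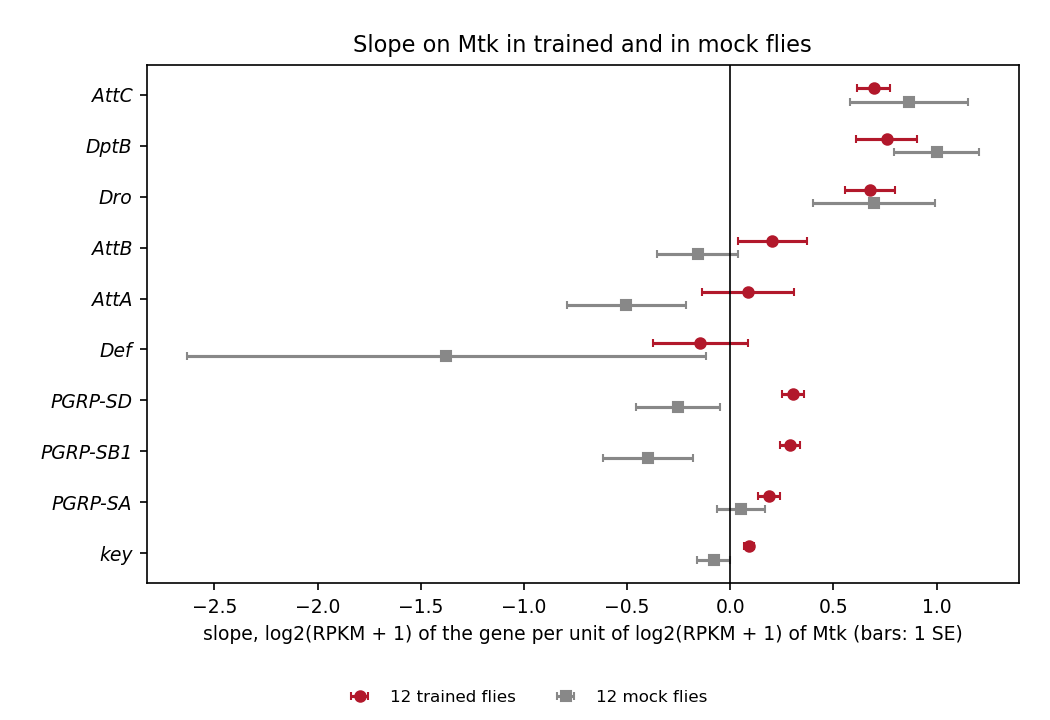
Slope on Mtk (x, units of log2(RPKM + 1) per unit of log2(RPKM + 1) of Mtk, bars 1 SE) for 10 immune genes (y) in the 12 trained flies (red circles) and the 12 mock flies (grey squares). AttC, DptB and Dro lie near each other in both sets, and PGRP-SD and PGRP-SB1 are positive in trained flies (0.31 and 0.29) and negative in mock flies (-0.25 and -0.40). With 1 mock fly left out, these 2 mock slopes had an unadjusted limma p below 0.05 in 0 and 2 of 12 fits.

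The Toll pathway, the Bomanins it induces and JAK-STAT signalling are further arms of fly immunity. Of 18 Toll pathway genes, 0 were positive and 2 were negative at an unadjusted p below 0.05 (6.63% and 6.77% of all genes), the NF-kB factor Dif (-0.06) and GNBP3 (-0.07), a sensor of fungal glucan. Without 1X trained replicate 1 these slopes were 0.00 and -0.03, and 1 of the 18 genes was negative at that level (3.25% of all genes). In 3X trained flies alone 1 was positive and 4 were negative (3.31% and 5.94% of all genes). In 1X trained flies alone 2 were positive and 0 negative (7.95% and 6.36%). Of 17 Bomanin, Daisho and Drosomycin-like genes, 0 were positive and 2 negative, Drsl4 (-0.35) and Drsl5 (-0.15), and without 1X trained replicate 1 neither direction had any. In the 8 high flies alone 5 of the 17 were positive and 2 negative, against 6.06% and 6.05% of all genes. In 3X trained flies alone 0 were positive and 1 negative (3.31% and 5.94%), and in 1X alone 1 and 2 (7.95% and 6.36%). At any p, 1 of the 17 slopes was above 0 in 3X alone (median -0.13) and 13 in 1X alone (median 0.08). Of all 10546 slopes, 5261 and 5450 were above 0 in these fits. Drsl4 had 29.0 RPKM in 1X trained replicate 1 against 189 to 415 in the other 11. Of 11 JAK-STAT, Turandot and Tep genes only Socs36E (0.04), a feedback inhibitor of JAK-STAT, had an unadjusted p below 0.05, and without 1X trained replicate 1 none did. At that level 2 of the 11 were negative in 3X trained flies alone (5.94% of all genes) and 2 positive in 1X alone (7.95%). The genes that the study's text takes up besides the AMPs, GNBP-like3, Gclm and Tig, had slopes of -0.01, -0.07 and -0.01, none with an unadjusted p below 0.05.

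Besides AttC, Dro, DptB and the 2 PGRPs, the 10 positive slopes with the smallest p belonged to CG17982, CG7840, Myo31DF, NimB4 and CG17224, none of which was called. NimB4, a secreted Nimrod protein that takes part in the clearance of dying cells, had 9.09 to 16.4 RPKM in the high and 9.17 to 11.5 in the low flies, which overlap. Its slope was 0.12 in trained and -0.32 in mock flies, and the difference of 0.44 was not called. NimB4 was picked for its small p in these trained flies, so this difference is only a description. Myo31DF, a type I myosin, was 12.8 and 11.7 RPKM in 1X trained replicates 1 and 4, the flies with the most Mtk, and 5.25 to 9.81 in the others (slope 0.13). CG17224 had 97.2 RPKM in 1X trained replicate 1 and 10.7 to 32.9 in the others (slope 0.38).

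The negative slopes were led by Miox, which encodes myo-inositol oxygenase, at -0.21 (SE 0.03, limma adjusted p = 0.0544), just short of the threshold. In 1X trained flies Miox was 458, 1050, 779 and 1028 RPKM in the high and 1102 and 883 in the low flies. In 3X trained flies it was 448, 565, 497 and 613 in the high and 869 and 675 in the low flies, and the mock range was 461 to 936. Within 3X every high fly was thus below both low flies, whereas within 1X replicates 3 and 5 were above replicate 6. The slope was -0.18 without 1X trained replicate 1 and -0.26 in 3X trained flies alone.

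The other 9 of these were CG1773, ple, CtsK2, CG3842, Cyp6t1, lncRNA:CR45082, CG33080, CG6834 and Ance-5, with slopes of -0.27 to -0.10 and limma adjusted p of 0.0619 to 0.0856. Cyp6t1, a cytochrome P450 gene, and lncRNA:CR45082 overlap on the same strand and may share reads. ple, the tyrosine hydroxylase gene of dopamine and cuticle pigment synthesis, had 9.10 RPKM in 1X trained replicate 1 and 15.1 to 19.9 in the other 1X trained flies, and 10.7 to 12.4 in high against 14.9 and 12.99 in low 3X trained flies. Its slope of -0.15 was -0.09 without 1X trained replicate 1. Ance-5, of the angiotensin-converting enzyme family, and CG6834 were lower in all 8 high flies than in all 4 low flies, as were 24 genes in all (0.228%).

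**Figure D4:**
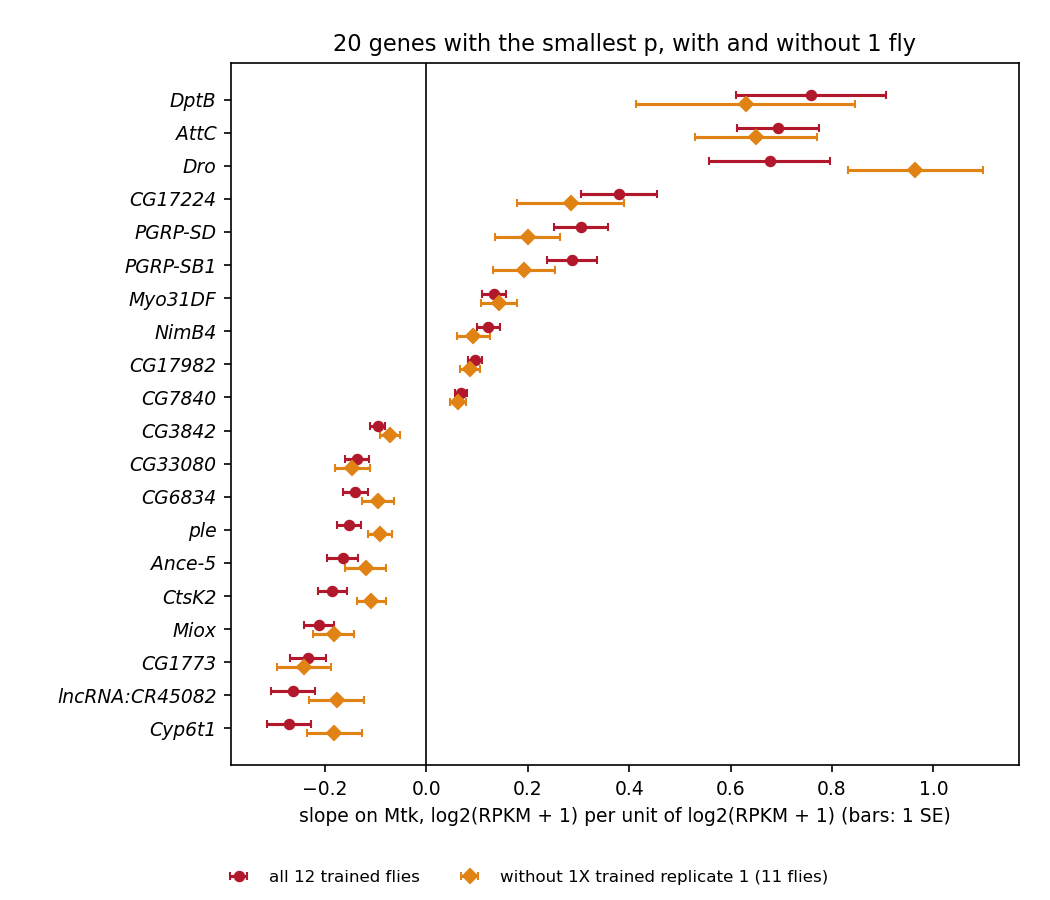
Slope on Mtk (x, bars 1 SE) of the 20 genes (y) with the smallest p, 10 in each direction, over all 12 trained flies (red circles) and without 1X trained replicate 1 (orange diamonds). The 20 genes were picked for small p, so their signs are a description, and the slope of Dro moves from 0.68 to 0.96 and that of ple from -0.15 to -0.09.

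Within each schedule, 56 genes (0.531%) were higher and 60 (0.569%) lower in every high than in every low fly. The 5 with the largest difference upward were Dro (1.99 on the log2 scale), PGRP-SD (0.85), Nha1, a sodium/proton exchanger (0.53), Art8, an arginine methyltransferase (0.47), and CG32267 (0.37). Dro passed the filter on low values only through the high flies, so its place in this order is in part fixed by the filter. Nha1 had 3.63 to 6.64 RPKM in the high and 2.53 to 3.80 in the low flies. Downward they were the cytochrome P450 gene Cyp4e3 (-0.87), the lipid droplet gene Jabba (-0.59), Acp63F (-0.51), CG30002 (-0.49) and CG9664, an ABC transporter gene (-0.45). Cyp4e3 had 12.9 and 13.8 RPKM in low against 9.50 to 12.0 in high 1X trained flies, and 23.7 and 15.8 against 4.26 to 8.76 after 3X.

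The head fat body stores protein and fat and is a main source of AMPs. Of 10 fat body genes tested 9 had a negative slope (4968 of all 10546 genes), with a median of -0.14. Lsp2, a storage protein, and Pepck1, an enzyme of gluconeogenesis, were negative at an unadjusted limma p below 0.05 (6.77% of all genes). Lsp2 was 46.8 RPKM in 1X trained replicate 1, against 2703 to 6979 in the other 1X trained flies, and after 3X it was 1004 to 1735 in the high and 3181 and 4352 in the low flies. Its slope of -0.78 (SE 0.22, unadjusted limma p = 0.00437, n = 12) was -0.08 without 1X trained replicate 1, and -0.47 in 3X trained flies alone. Pepck1 went from -0.36 to -0.07 and the median of the list to -0.07 without that fly. The list then had 3 positive slopes, and 1 negative slope at an unadjusted limma p below 0.05 (3.25% of all genes). In mock flies 7 of the 10 slopes were positive, with a median of 0.18. The summed level of the fat body list was 997 to 9614 RPKM in high flies, 5109 to 6614 in low flies and 4406 to 11864 in mock flies, and its part in the slopes of the immune genes was not tested.

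No marker gene of the other cell types was without overlap between high and low flies. Of 11 hemocyte genes Pxn alone had an unadjusted p below 0.05 (-0.05), with summed levels of 188 to 281 RPKM in high and 203 to 249 in low flies. Of the neuron (5), glia (5), photoreceptor (6), testis (5), gut (2) and accessory gland (1) genes tested none did. The 2 gut genes tested, the amylase genes Amy-p and Amy-d, stood apart in 1X trained replicate 1. With them the gut list summed to 577 RPKM in that fly, against 87.3 to 280 in the other high flies. It summed to 106 to 207 in low flies and 67.7 to 294 in mock flies. The trypsin and Jonah protease genes of the list had only 0 to 2 reads each in that fly. Amy-p, an amylase, had 320 RPKM in that fly and 39.3 to 138 in the other trained flies, and its slope of 0.22 was -0.01 without it, 0.38 in 1X trained flies alone and -0.31 in 3X trained flies alone. Amy-d, a near-identical copy that can share its reads, had slopes of 0.16, -0.02, 0.29 and -0.27 in the same fits. At an unadjusted limma p below 0.05 both were positive in 1X trained flies alone (7.95% of all genes). At the same level both were negative in 3X trained flies alone (5.94%). The tissue source of the amylase reads, and their part in the slopes of the immune genes, was not tested. Of 13 stress genes 1 was positive and 1 negative at an unadjusted limma p below 0.05 (6.63% and 6.77% of all genes). These were GstD1, a glutathione transferase (0.08), and the chaperone gene DnaJ-1 (-0.07). Without 1X trained replicate 1 their slopes were 0.01 and -0.02. Reads in the genes with whole reads were 17140748 to 35797718 in high flies and 27208997 to 34143153 in low flies.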

How the data were processed

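Single male heads were sequenced as non-stranded SMART-Seq v4 libraries of poly(A) RNA, 6 flies in each of 4 groups. The authors deposited RPKM values for 17559 genes. The submitters' processing notes name TopHat2 2.0.13, bcl2fastq 2.18 and dm6, the authors used edgeR 3.18.1, which was not run here, and another section of the study's methods names an older TopHat, dm3 and cuffdiff. Symbols were found for 17252 gene IDs, and listed genes that did not match the table (Drs, BaraA2, FASN1, PPO1, para) were not analysed here. RPKM times the exonic length in Ensembl 115 gave whole reads, within a tolerance of 0.02, for 16284 of 16693 genes (97.5%), and only these reads are used as depth. They cover counting error only, since PCR copies were not told apart.

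Values were taken to log2(RPKM + 1), which understates changes of low genes, and a gene was kept when 6 or more of all flies reached 1 RPKM, which left 10546 genes without Mtk. limma 3.58.1 (lmFit, eBayes with trend) in R 4.3.3 fitted the two-sided slope on log2(RPKM + 1) of Mtk with schedule as a term, in the 12 trained flies, in the 12 mock flies, and as a difference of slopes with 4 group means. Benjamini-Hochberg adjustment ran over all genes tested. The fit was tested on simulated data. The high and low flies, split on a measured value, were only described. High minus low differences are means within a schedule, averaged over both. Named genes were the gene lists, the 10 smallest p in each direction and the 5 largest differences without overlap within both schedules. The flies, lists and rule were chosen with earlier results of these data known. Alternatives were another pseudocount, filter, scaling, schedule term, replicate block, array weights, Mtk as a rank, the mean of DptB and AttC for Mtk, a depth covariate and fits without flies. Coordinates are those of BDGP6 in Ensembl 115. Scripts used Python 3.11.15, numpy 2.4.6, pandas 2.3.3 and matplotlib 3.10.9.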

Additional observations from a re-analysis of the deposited data

Results flagged for a closer look

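In 12 of 96 groups of 6 flies examined, 1 fly stood apart from the other 5 by more of the group's range than Dixon's critical value, where chance alone marks about 1 group in 20. Most of these genes were picked for a small p of the slope on Mtk, and 1X trained replicate 1 had the most Mtk, so the number is a description. The share of the range is given for each. In 1X trained replicate 1 AttB (0.804, at 11.3 RPKM against 2.81 in the next fly) and PGRP-SD (0.689, 222 against 78.2) were high. In the same fly Ance-5 (0.844, 62.1 against 113), CG6834 (0.755, 7.52 against 13.1), lncRNA:CR45082 (0.694, 49.4 against 116), Cyp6t1 (0.689, 19.2 against 47.1), CtsK2 (0.652, 71.7 against 130) and ple (0.639, 9.10 against 15.1) were low. In mock flies Dro was high in 3X mock replicate 4 (0.747), Miox in 1X mock replicate 6 (0.732) and CtsK2 in 1X mock replicate 1 (0.692), and Myo31DF was low in 1X mock replicate 2 (0.670).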

How the results depend on the processing

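The number of genes called in trained flies, 1 as reported, was 3 with a pseudocount of 0.1 (AttC, Miox, CG1773), 3 with no filter (AttC, CecB, mir-1008), 2 with a replicate block, 12 with the mean of DptB and AttC in place of Mtk, 23 with the share of genes at 0 as a covariate, and 0 with array weights, with Mtk as a rank, without the 2 flies farthest from the median of Mtk, in the 8 high flies alone and in 3X trained flies alone. It ran from 0 to 267 with 1 fly left out. In mock flies it was 0, 2 with a pseudocount of 0.1, and 0 to 0 with 1 fly left out, and for the difference it was 0 to 1. AttC lost its call with the replicate block (slope 0.58, adjusted p = 0.0635), array weights (0.69, 0.169), the rank (0.60, 0.557), without the 2 farthest flies (0.57, 0.467), in the 8 high flies (0.79, 0.149) and in 3X alone (0.57, 0.5003). Slopes that changed sign were those of AttA (array weights -0.066, rank -0.013, 3X alone -0.035, DptB and AttC mean -0.072, and -0.16 to 0.22 with 1 fly left out), AttB (-0.014 without the 2 farthest flies, -0.028 in 3X alone, -0.040 to 0.29 with 1 fly left out) and Def (0.48 and 0.37), and in mock flies AttB (0.10) and Def (0.45) with the replicate block. The cause was not tested. Over 16 settings the 20 genes with the smallest p gave 318 slopes, of which 0 changed sign, though they were picked on these flies. Same-numbered 1X and 3X trained flies deviated together with r from -0.14 to 0.15, and 1 of 6 correlated best with its own number. By this measure no pairing by number was seen. Whether same-numbered flies shared a batch was not tested. Mtk rests on 4 to 25 reads in mock and low flies. Peptides below the filter had 0 reads in some of these flies and at most 32 (CecA2 in 3X trained replicate 1). Such low counts limit the slopes.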

Other observations

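Without 1X trained replicate 4, which had 30.4 RPKM of Mtk and the fewest reads, 80 genes (0.759%) had a called positive and 187 (1.77%) a called negative slope. The members of the gene lists among them were AttC, Dro, DptB, PGRP-SB1, PGRP-SD and key on the positive side, and Drsl4, GNBP3 and Lsp2 on the negative side. AttC and DptB had been named when the flies were chosen, and DptB and Dro passed the filter only through the high flies. The calls of these genes are therefore only a description. That fly had more Lsp2 (6979 RPKM) than any other trained fly, whereas 1X trained replicate 1, with more Mtk still, had the least (46.8 RPKM). With no filter on low values DptA had a slope of 0.68 (SE 0.13, limma adjusted p = 0.135), and CecB a called slope of 0.10 (SE 0.01, limma adjusted p = 0.0072), although CecB had at most 6 reads in any trained fly.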
